A study of Danio rerio with 12 samples.

Results

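Cyclin-dependent kinase (CDK) inhibitors were followed in zebrafish ovarian follicles that carried 1 or 2 working copies of cdkn1a. The family was defined by 9 gene names: cdkn1a, cdkn1ba, cdkn1bb, cdkn1ca, cdkn1cb, cdkn1d, cdkn2a/b, cdkn2c and cdkn3. The names table paired 8 of these names with 8 of the 32057 Ensembl gene IDs in the count table. cdkn1ba and cdkn1bb appear there only as CDKN1B, a symbol held by ENSDARG00000029018 and ENSDARG00000054271, so these 2 genes are given by ID and not by paralog letter. cdkn1d was not analysed here. The samples were 12 bulk RNA sequencing libraries of follicles of AB strain fish at the primary growth stage, when the oocyte enlarges before yolk uptake, in 4 groups of 3. Wild-type fish (cdkn1a +/+) and heterozygotes (cdkn1a +/-, made by CRISPR/Cas9 disruption) were each sampled at 2 ages, 50 days (dpf, days post-fertilization) and 8 months (mpf, months post-fertilization). Heterozygotes were used because homozygous mutants die as embryos, per the series description. The labels do not say how many fish or mutant lines stand behind a library, nor which allele was made, so the p-values measure the spread between these libraries, which may be technical. The question put to the family was whether other inhibitors change when cdkn1a falls.

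CDK inhibitors hold back the kinases that drive the cell cycle. The Cip/Kip proteins p21 (cdkn1a), p27 (the CDKN1B genes) and p57 (the cdkn1c genes) bind complexes of cyclins with CDKs, foremost those that lead into DNA replication. The INK4 proteins (cdkn2a/b, CDKN2C) bind CDK4 and CDK6 and keep D cyclins off them. CDKN3 is a phosphatase that removes the activating phosphate from CDKs. In mammals, p27 is known for holding ovarian follicles in reserve, and p21 is a target of the p53 response to DNA damage.

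Libraries held 31044931 to 96839220 estimated counts. Levels are given as CPM, the library-scaled count, with library totals adjusted by TMM (trimmed mean of M-values); they compare a gene between libraries and are not per length. Oocyte markers were abundant, with 7655 to 26495 summed CPM per library over 11 genes. Of 18834 genes tested with edgeR's quasi-likelihood test, 40.8% differed between the genotypes at 50 dpf and 28.1% at 8 mpf, at a false discovery rate under 0.05. The split of these calls depended on the scaling. At 50 dpf 3696 genes were higher and 3995 lower in heterozygotes, and with library size alone 1618 were higher and 6749 lower, while the median log2 fold change of all genes moved from -0.071 to -0.40. At 8 mpf the split was 2377 higher and 2911 lower, with upper quartile scaling 1754 and 3410, and with library size alone 1337 and 4037.

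cdkn1a (ENSDARG00000076554), the disrupted gene, had 3.37, 3.87 and 3.50 CPM in young (50 dpf) wild type and 0.450, 0.422 and 0.519 CPM in heterozygotes of that age. The libraries of 8 mpf had 0.668, 1.13 and 0.778 CPM in wild type against 0.397, 0.651 and 0.583 CPM in heterozygotes. Wild type at 50 dpf stood far above all others, and the genotypes did not overlap at either age. Of all tested genes, 30.7% at 50 dpf and 23.5% at 8 mpf were lower in heterozygotes without overlap. The counts behind these values were 12 to 17 per heterozygote library at 50 dpf and 130 to 205 in wild type. At 50 dpf cdkn1a fell by 2.94 on the log2 scale (SE 0.28; edgeR adjusted p = 6.79e-06), to between 8.63% and 19.8% of wild type by the 95% interval of the fit. At 8 mpf the change of -0.68 (log2; SE 0.26; edgeR adjusted p = 0.0679) did not pass the threshold, and its interval ran from 42.6% to 92.1% of wild type. A level of 50% of wild type lies above the first interval and inside the second. Whether the disrupted copy still yields counted RNA was not tested. The change at 8 mpf passed with upper quartile scaling (adjusted p = 0.0426), with library size alone (0.0368) and without wild-type replicate 1 of that age (0.0449), in a range of 0.0368 to 0.236 over 15 alternatives.

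**Figure D1:**
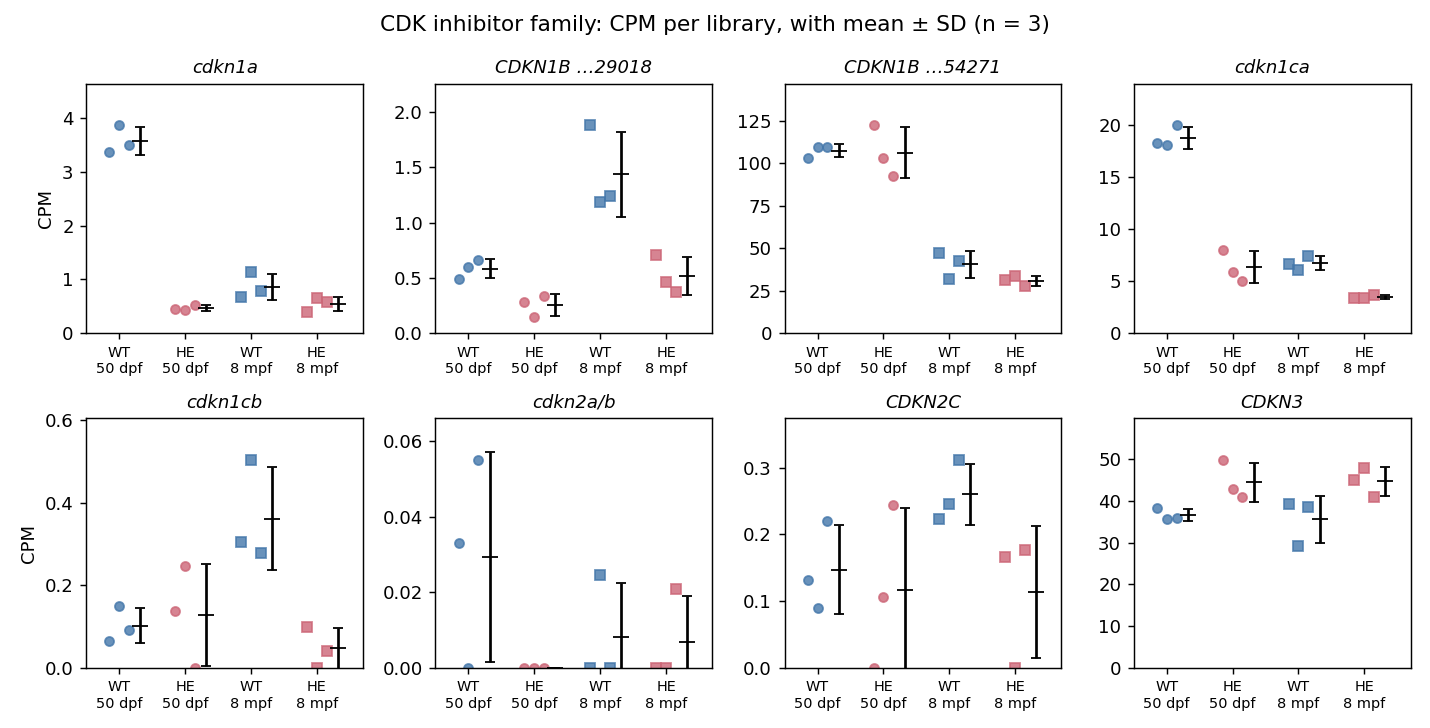
CPM of each family member in the 12 libraries (points: circles at 50 dpf, squares at 8 mpf; blue for wild type, WT, and red for heterozygotes, HE), with the mean and SD of each group of 3 in black; each panel has its own axis from 0, which hides the part of an SD bar below 0, and the 2 CDKN1B genes are told apart by the end of their ID. cdkn1a and cdkn1ca are highest in wild type at 50 dpf, CDKN1B ENSDARG00000054271 is higher at 50 dpf in both genotypes, and CDKN3 lies between 29.1 and 49.8 CPM throughout.

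cdkn1ca (ENSDARG00000010878), a p57 gene, was lower in heterozygotes at both ages. Its libraries held 18.2, 18.1 and 19.9 CPM in wild type against 8.0, 5.88 and 5.01 CPM in heterozygotes at 50 dpf. At 8 mpf they held 6.66, 6.05 and 7.37 CPM in wild type against 3.36, 3.40 and 3.68 CPM in heterozygotes. Every heterozygote library lay below every wild-type library of its age, as for 30.7% of all tested genes at 50 dpf and 23.5% at 8 mpf. The lowest group, heterozygotes at 8 mpf, was also the tightest, with an SD of 0.174 CPM. At 50 dpf cdkn1ca fell by 1.57 on the log2 scale (SE 0.16; edgeR adjusted p = 1.33e-05), to between 26.4% and 42.8% of wild type. At 8 mpf it fell by 0.94 (SE 0.16; edgeR adjusted p = 8.37e-04), to between 40.9% and 66.2%. Both calls held in each of 15 alternatives per age. Of all tested genes, 11.9% had a lower log2 fold change at 50 dpf and 16.1% at 8 mpf. In bulk samples, fewer cells of a type that holds a transcript and less of it per cell cannot be told apart.

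cdkn1cb (ENSDARG00000104903), the other p57 gene, was barely counted. It had 4, 5 and 5 counts in wild type and 4, 7 and 0 counts in heterozygotes at 50 dpf. At 8 mpf it had 15, 41 and 16 counts in wild type and 6, 0 and 4 counts in heterozygotes. The wild-type libraries at 8 mpf, at 0.304, 0.503 and 0.277 CPM, were the highest of the 12. The gene passed the filter on low counts only through them, so it entered the test because it was high there. Its log2 fold change at 8 mpf was -2.83 (SE 0.94; edgeR adjusted p = 0.0410). The call was lost in 8 of 15 alternatives: without the filter (adjusted p = 0.0692), with a replicate block (adjusted p = 0.0830), with limma at a pseudocount of 0.1 (adjusted p = 0.128) and without any of 5 single libraries, which were the 3 wild-type libraries and heterozygote replicates 2 and 3 of that age (adjusted p = 0.0680 to 0.136). At 50 dpf the value was 0.34 (SE 1.01; edgeR adjusted p = 0.813), with an interval from a 0.276-fold to a 5.84-fold level.

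CDKN1B ENSDARG00000054271, a p27 gene, was at 103, 109 and 110 CPM in wild type against 122, 103 and 92.7 CPM in heterozygotes at 50 dpf. The genotypes overlapped, and their means were 107 ± 3.89 and 106 ± 15.03 CPM (SD, n = 3). The log2 fold change was -0.016 (SE 0.14; edgeR adjusted p = 0.941), with an interval of 0.799-fold to 1.23-fold. With library size alone it was -0.36 (adjusted p = 0.0203), close to the median of -0.40 over all genes in that scaling. The libraries of 8 mpf had 47.3, 31.9 and 42.2 CPM in wild type against 31.3, 33.3 and 27.6 CPM in heterozygotes, and a single wild-type library, replicate 2, lay among the heterozygotes. The log2 fold change was -0.40 (SE 0.14; edgeR adjusted p = 0.0565). It passed the threshold with upper quartile scaling (adjusted p = 0.0256), with library size alone (0.00251), with DESeq2 (0.0416) and without wild-type replicate 2 (0.00655), in a range of 0.00251 to 0.206.

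CDKN1B ENSDARG00000029018, the other p27 gene, had 20 to 36 counts per wild-type library and 4 to 11 per heterozygote library at 50 dpf. Its level was 0.494, 0.596 and 0.660 CPM in wild type against 0.277, 0.141 and 0.336 CPM in heterozygotes. At 8 mpf it was 1.88, 1.19 and 1.25 CPM in wild type against 0.711, 0.465 and 0.375 CPM in heterozygotes. The genotypes did not overlap at either age, and wild type at 8 mpf was the highest group. Of all tested genes, 30.7% at 50 dpf and 23.5% at 8 mpf were likewise lower in heterozygotes without overlap. The log2 fold change was -1.19 at 50 dpf (SE 0.41; edgeR adjusted p = 0.0346) and -1.48 at 8 mpf (SE 0.35; edgeR adjusted p = 0.00721). The call at 8 mpf held in all 15 alternatives. The call at 50 dpf was lost in 5 of 15, which were a fit of only the 2 groups compared (adjusted p = 0.0521) and the fits without wild-type replicate 2 or 3 (0.0697, 0.0948) or heterozygote replicate 1 or 2 (0.0612, 0.115).

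Both INK4 members were at or near the floor of detection. cdkn2a/b (ENSDARG00000037262) had at most 3 counts in any library and 0 in each heterozygote library at 50 dpf, where a count of 0 allows up to 0.0916 to 0.106 CPM. It did not pass the filter, and no fold is given. CDKN2C (ENSDARG00000057610), the p18 gene, had 0 to 12 counts per library at 50 dpf and 0 to 20 at 8 mpf. It passed the filter only through wild type at 8 mpf, with 0.223, 0.245 and 0.311 CPM there against 0.165, 0 and 0.177 CPM in heterozygotes. Its log2 fold change was -0.32 at 50 dpf (SE 1.02; edgeR adjusted p = 0.825) and -1.08 at 8 mpf (SE 0.90; edgeR adjusted p = 0.407). At this depth its intervals reached a 3.72-fold rise at 50 dpf and a 1.84-fold rise at 8 mpf.

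CDKN2D (ENSDARG00000094176), an INK4 gene outside the 9 names, was added after its values were seen because it was well counted. It was at 10.5, 8.76 and 9.43 CPM in wild type against 8.79, 6.20 and 6.35 CPM in heterozygotes at 50 dpf, where the groups overlapped narrowly. At 8 mpf it was at 5.0, 2.78 and 4.25 CPM in wild type against 2.15, 1.79 and 1.58 CPM in heterozygotes. These groups did not overlap, as for 23.5% of all tested genes in that direction. The log2 fold change was -0.43 at 50 dpf (SE 0.21; edgeR adjusted p = 0.126) and -1.12 at 8 mpf (SE 0.22; edgeR adjusted p = 0.00241).

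CDKN3 (ENSDARG00000039130), the phosphatase, was the only well-counted member with higher values in heterozygotes at both ages. At 50 dpf it was at 38.4, 35.7 and 35.8 CPM in wild type against 49.8, 42.7 and 40.9 CPM in heterozygotes. At 8 mpf it was at 39.2, 29.1 and 38.4 CPM in wild type against 45.0, 48.0 and 41.0 CPM in heterozygotes. The genotypes did not overlap at either age, as was the case for 57.4% and 47.0% of all tested genes, counting both directions. In the direction of CDKN3, higher in heterozygotes without overlap, the share was 26.7% at 50 dpf and 23.5% at 8 mpf. The log2 fold change was 0.28 at 50 dpf (SE 0.12; edgeR adjusted p = 0.0910) and 0.33 at 8 mpf (SE 0.12; edgeR adjusted p = 0.0666), and neither passed the threshold. With library size alone the value at 50 dpf was -0.060, against a median of -0.40 over all genes in that scaling.

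**Figure D2:**
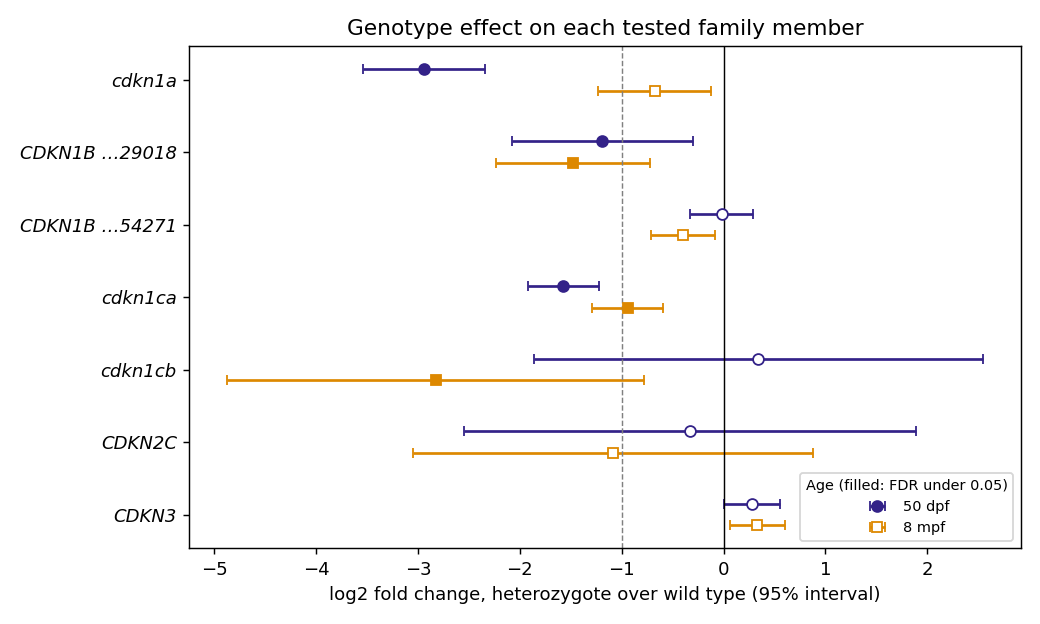
Log2 fold change of heterozygotes over wild type for the 7 tested members, with 95% intervals, at 50 dpf (circles) and 8 mpf (squares); filled marks passed a false discovery rate of 0.05, the solid line marks no change and the dashed line a log2 value of -1. cdkn1a at 50 dpf lies at -2.94, cdkn1ca lies below 0 at both ages, and cdkn1cb and CDKN2C have intervals that span several log2 units.

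Among the members other than cdkn1a, 2 of 6 tested fell and 0 rose at 50 dpf, where 21.2% of all tested genes were lower and 19.6% higher. At 8 mpf 3 of 6 fell and 0 rose, against 15.5% lower and 12.6% higher. cdkn1ca and CDKN1B ENSDARG00000029018 fell at both ages, and cdkn1cb was the other call at 8 mpf. cdkn1cb and CDKN2C were tested only because they were high in wild type at 8 mpf, which favours lower values in heterozygotes of that age. Without these 2 genes, 2 of 4 members fell and 0 rose at each age. With cdkn1a counted, 3 of 7 were lower at each age. cdkn1a was among the 3 at 50 dpf but not at 8 mpf, where its own fall missed the threshold (edgeR adjusted p = 0.0679). At an unadjusted p under 0.05 the count of higher members was 1 at each age, CDKN3, and DESeq2 and limma also gave 0 higher members at an adjusted p under 0.05. In all 15 alternatives at each age 0 members were called higher, while the number called lower ranged from 2 to 4 at 50 dpf and from 2 to 5 at 8 mpf. The alternatives tested 7 members, except 8 without the filter and 5 in the fit of only the groups compared at 50 dpf. For the 4 members free of that selection (both CDKN1B genes, cdkn1ca and CDKN3) the median log2 fold change was -0.60 at 50 dpf and -0.67 at 8 mpf, against -0.071 and 0.0083 over all genes. With so few members, a share or a median describes these genes and no more. With no overlap between the libraries of the genotypes, 2 of the 4 were lower and 1 higher in heterozygotes at each age, where 30.7% of all genes were lower and 26.7% higher at 50 dpf and 23.5% were lower and 23.5% higher at 8 mpf.

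The intervals set how large a rise of another inhibitor the main fit allows, given its TMM scaling. cdkn2a/b was not tested and has no interval, so a rise of it is not bounded. For cdkn1ca and CDKN1B ENSDARG00000029018 both intervals lay below 1-fold at both ages. For CDKN1B ENSDARG00000054271 the upper bound was 1.23-fold at 50 dpf and 0.942-fold at 8 mpf. For CDKN3 the interval ran from 1.01-fold to 1.47-fold at 50 dpf and from 1.04-fold to 1.51-fold at 8 mpf. Both CDKN3 intervals thus lay above 1-fold, though neither change passed the adjusted threshold. Without heterozygote replicate 1 of 50 dpf, its highest library, the log2 fold change of CDKN3 at that age was 0.18 (edgeR adjusted p = 0.276). Over 15 alternatives per age its value ran from -0.060 to 0.34 at 50 dpf and from 0.16 to 0.40 at 8 mpf. The intervals are not adjusted for the number of genes tested and do not cover the choice of scaling. At 50 dpf, library size alone moved the log2 fold change of CDKN3 from 0.28 to -0.060. It moved that of CDKN1B ENSDARG00000054271 from -0.016 to -0.36, and the median of all genes from -0.071 to -0.40. For cdkn1cb at 50 dpf and CDKN2C at both ages the low counts gave wide intervals, up to 5.84-fold. Protein amounts were not measured.

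The 2 ages were set against each other by testing the log2 fold change at 8 mpf less that at 50 dpf. Of the 7 members only cdkn1a passed, with a difference of 2.26 (SE 0.38; edgeR adjusted p = 0.00193), where 13.5% of all tested genes passed, 6.88% upward and 6.65% downward. For cdkn1ca the difference was 0.63 (SE 0.22; edgeR adjusted p = 0.0831), a smaller fall at 8 mpf. It passed with DESeq2 (adjusted p = 0.0356), with library size alone (0.0133) and without heterozygote replicate 1 at 50 dpf (0.00814), in a range of 0.00814 to 0.180. For CDKN1B ENSDARG00000054271 it was -0.38 (SE 0.20; edgeR adjusted p = 0.243), which passed only without wild-type replicate 2 at 8 mpf (adjusted p = 0.0449) among 20 alternatives. The differences of CDKN1B ENSDARG00000029018, cdkn1cb, CDKN2C and CDKN3 had edgeR adjusted p-values of 0.156 to 0.889.

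Between the ages the members moved in different directions. In wild type, from the younger to the older age, cdkn1a fell by 2.04 (log2; SE 0.25; edgeR adjusted p = 2.21e-05), cdkn1ca by 1.49 (SE 0.16; edgeR adjusted p = 8.81e-06) and CDKN1B ENSDARG00000054271 by 1.41 (SE 0.14; edgeR adjusted p = 6.98e-06). CDKN1B ENSDARG00000029018 rose by 1.30 (SE 0.35; edgeR adjusted p = 0.00729), so the CDKN1B genes changed in opposite directions with age. These 4 of 7 calls, 1 higher and 3 lower at 8 mpf, stand beside 55.2% of all tested genes, 28.7% higher and 26.5% lower. In heterozygotes 2 of 7 members changed, both lower at 8 mpf, against 53.9% of all genes, 28.5% higher and 25.5% lower. CDKN1B ENSDARG00000054271 fell by 1.79 (SE 0.15; edgeR adjusted p = 1.66e-06) and cdkn1ca by 0.85 (SE 0.16; edgeR adjusted p = 7.29e-04). In the same groups cdkn1a had 0.22 (SE 0.29, edgeR adjusted p = 0.548). CDKN1B ENSDARG00000029018 had 1.01 (SE 0.41, edgeR adjusted p = 0.0515), with an interval of 1.09-fold to 3.73-fold. That rise passed the threshold in 4 of 15 alternatives, with adjusted p-values of 0.0185 to 0.193 over the 15. CDKN3 had -0.043 in wild type (edgeR adjusted p = 0.791) and 0.0068 in heterozygotes (edgeR adjusted p = 0.974), with intervals inside 0.805-fold to 1.21-fold. The labels give no batch, so neither age nor genotype can be told apart from a difference in how or when the libraries were made.

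By mean level cdkn1a ran from wild type at 50 dpf (3.58 ± 0.259 CPM) through wild type at 8 mpf (0.858 ± 0.240) and heterozygotes at 8 mpf (0.544 ± 0.132) to heterozygotes at 50 dpf (0.464 ± 0.0499; SD, n = 3 each). Only the first step passed the test; the neighbours among the last 3 groups did not differ at the threshold. cdkn1ca ran from wild type at 50 dpf (18.7 ± 1.04 CPM) through wild type at 8 mpf (6.69 ± 0.661) and heterozygotes at 50 dpf (6.30 ± 1.54) to heterozygotes at 8 mpf (3.48 ± 0.174). The middle pair overlapped, and both outer steps passed.

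The genes around the inhibitors were described through 4 lists. Of 18 CDK and cyclin genes 17 were tested. At 50 dpf 6 of the 17 rose and 4 fell, where 19.6% of all genes rose and 21.2% fell, with a median log2 fold change of 0.17 against -0.071 for all genes (-0.18 against -0.40 with library size alone). CCNE2, a cyclin E, fell by 2.996 (17.5 ± 0.498 to 2.19 ± 0.30 CPM, mean ± SD, n = 3). CCND1, a D cyclin that binds CDK4 and CDK6, fell by 2.58 (7.43 ± 0.310 to 1.25 ± 0.350 CPM). CCND2 (ENSDARG00000051748), also a D cyclin, was at 23.9 ± 1.58 and 10.8 ± 0.796 CPM. CCNB1, the cyclin of CDK1, rose by 0.61. Their edgeR adjusted p-values were 2.09e-07 to 0.00876. With upper quartile scaling the list gave 2 higher and 4 lower, and with library size alone 1 and 6. At 8 mpf 0 rose and 2 fell (6 lower with library size alone), where 12.6% of all genes rose and 15.5% fell. They were CCND1, which fell by 1.65 (19.8 ± 1.16 to 6.32 ± 0.390 CPM), and CCNE2, which fell by 1.38 (4.95 ± 0.674 to 1.88 ± 0.402 CPM; edgeR adjusted p = 7.02e-06 and 7.15e-05).

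Pocket proteins and E2F factors, which CDKs release from each other, had 13 of 14 genes tested. At 50 dpf 4 of the 13 rose and 8 fell, against 19.6% and 21.2% of all genes, with a median of -0.59 against -0.071. E2F8, a repressor of the family, fell by 1.94 (19.6 ± 0.437 to 5.10 ± 1.98 CPM), and E2F1, an activator, fell by 2.59 (0.943 ± 0.277 to 0.159 ± 0.0794 CPM). The pocket protein gene RBL1 fell by 1.30 and E2F5 by 0.60, and the 4 genes had edgeR adjusted p-values of 6.15e-05 to 1.83e-04. At 8 mpf 3 rose and 3 fell, against 12.6% and 15.5% of all genes, with a median of 0.014 against 0.0083 (-0.16 against -0.17 for all genes with library size alone). E2F8 fell by 2.48 (40.3 ± 6.87 to 7.21 ± 0.795 CPM) and E2F5 by 0.47, while e2f6 rose by 0.64. RBL2, at a low level, fell by 2.03 (0.756 ± 0.406 to 0.185 ± 0.00293 CPM). These 4 genes had edgeR adjusted p-values of 8.65e-06 to 0.00822. With library size alone the e2f6 call at 8 mpf was lost (adjusted p = 0.0683). RBL2 and e2f6 were called in the same directions at 50 dpf, at -1.73 and 0.68 (edgeR adjusted p = 0.0403 and 0.00183). The other 2 genes that were higher in heterozygotes at 8 mpf were lower in them at 50 dpf. E2F1 had a log2 fold change of 0.99 at 8 mpf (edgeR adjusted p = 0.0160). E2F4, a repressor that works with pocket proteins, had -0.59 at 50 dpf and 0.48 at 8 mpf (edgeR adjusted p = 0.00188 and 0.00827), and its call at 8 mpf was lost with library size alone (0.29, adjusted p = 0.186).

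Of 20 tested genes that regulate transcription of the inhibitors, 2 rose and 7 fell at 50 dpf, and 1 rose and 7 fell at 8 mpf, with medians of -0.22 at both ages against -0.071 and 0.0083 over all genes. Of all genes 19.6% rose and 21.2% fell at 50 dpf, and 12.6% rose and 15.5% fell at 8 mpf, so that the 9 of 20 called at 50 dpf are near the 40.8% of all genes. foxo3b, a gene of the forkhead factors that induce p27 in mammals, fell by 3.47 at 50 dpf (3.06 ± 0.743 to 0.266 ± 0.230 CPM) and by 2.30 at 8 mpf (2.76 ± 0.564 to 0.542 ± 0.208 CPM). Its paralog foxo3a had 0.34 at 50 dpf (edgeR adjusted p = 0.0168; 0.0077 and not called with library size alone) and 0.024 at 8 mpf (edgeR adjusted p = 0.887; -0.063 under upper quartile scaling, -0.15 by library size alone). MYC, a repressor of p21 and p27 transcription in mammals, is the symbol of 2 genes. ENSDARG00000045695 fell by 1.15 at 50 dpf and by 2.12 at 8 mpf, and ENSDARG00000007241 fell by 0.78 at 50 dpf. At 8 mpf ENSDARG00000007241 had -0.21 and was not called (edgeR adjusted p = 0.218). It is the more abundant of the 2, at 150 ± 4.68 CPM in wild type at 50 dpf against 3.66 ± 0.213 CPM for ENSDARG00000045695. TP63, a p53 relative, fell by 1.06 at 50 dpf. SMAD3 (ENSDARG00000010207), which carries TGF-beta signals, fell by 1.91 at 8 mpf, and EZH2, a chromatin repressor of INK4 genes, by 0.46. The same SMAD3 gene also fell at 50 dpf, by 1.13 (edgeR adjusted p = 0.00243). By edgeR the adjusted p-values of the other falls named ran from 1.35e-04 to 0.00122 at 50 dpf, and those at 8 mpf from 1.70e-06 to 0.00256.

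Of 15 tested genes for the breakdown of inhibitor proteins, 3 rose and 1 fell at 50 dpf, and 1 rose and 0 fell at 8 mpf, where 40.8% and 28.1% of all genes were called at the 2 ages. The medians were 0.12 and 0.056, against -0.071 and 0.0083 over all genes. With library size alone they were -0.21 and -0.14, against -0.40 and -0.17 over all genes. DTL, the adaptor of the ubiquitin ligase that removes p21 on chromatin, rose by 0.43 at 50 dpf (92.8 ± 1.18 to 125 ± 4.37 CPM; edgeR adjusted p = 0.00111) and by 0.35 at 8 mpf (145 ± 10.9 to 185 ± 1.82 CPM; edgeR adjusted p = 0.00502). PCNA, the replication clamp on which p21 is marked, rose by 0.59 and SKP1, a ligase subunit, by 0.42 at 50 dpf. UBAC1, a subunit of a ligase for p27, fell by 1.30 (edgeR adjusted p = 5.37e-04 to 0.0291 for the 4). With library size alone 1 rose and 7 fell at 50 dpf, and DTL had 0.091 (adjusted p = 0.285) and 0.17 (adjusted p = 0.0763) at the 2 ages. SKP1 also missed the threshold with upper quartile scaling (adjusted p = 0.0693).

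**Figure D3:**
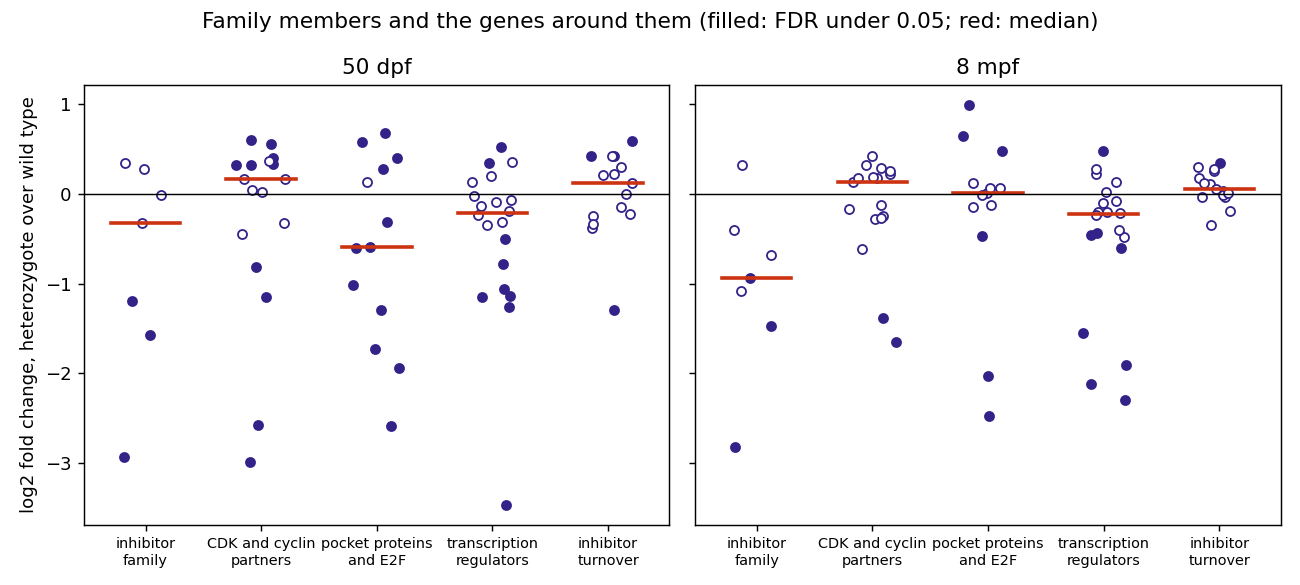
Log2 fold change of heterozygotes over wild type at 50 dpf (left) and 8 mpf (right) for the 7 tested family members and the tested genes of the 4 lists; filled points passed a false discovery rate of 0.05 and red lines are medians. In the family column no filled point lies above 0 at either age, while the CDK and cyclin column holds both filled points above 0 and CCNE2 at -2.996 at 50 dpf.

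Markers of other cells moved with the genotype as well, and their part in the family's values was not tested. The counts of markers stand beside 19.6% higher and 21.2% lower over all genes at 50 dpf, and 12.6% and 15.5% at 8 mpf. Of 13 tested follicle somatic cell markers, 2 rose and 4 fell at 50 dpf, and 0 rose and 1 fell at 8 mpf, with medians of -1.07 and -0.41. None of the 13 was at 0 throughout a group. Their summed level was 533 to 565 CPM in wild type and 681 to 781 CPM in heterozygotes at 50 dpf, and 442 to 477 and 486 to 497 CPM at 8 mpf, most of it from CYP11A1 (ENSDARG00000002347) and CYP17A1. gsdf, a granulosa cell gene, ran at 38.8, 15.6, 2.97 and 2.23 CPM in wild type and heterozygotes at 50 dpf and then at 8 mpf. Of 9 liver markers all 9 fell at 50 dpf, from 168 to 170 summed CPM in wild type to 19.2 to 26.1 in heterozygotes. The heterozygote mean was 13.3% of the wild-type mean, where cdkn1a was at 12.9%. At 8 mpf 6 of the 9 liver markers rose and 0 fell. Their summed level there was 6.33 to 7.10 CPM in wild type and 10.96 to 14.8 CPM in heterozygotes. By group mean, cdkn1a was lower in heterozygotes at 50 dpf than in wild type at 8 mpf, and liver markers were higher. A link between liver markers and cdkn1a was not tested. None of the 9 liver markers was at 0 throughout a group.

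Leukocyte markers fell for 5 of 10 tested genes at 50 dpf and for 6 of 10 at 8 mpf, and none rose, where 21.2% and 15.5% of all genes fell. Their summed level was 47.0 to 48.1 and 18.5 to 25.8 CPM in wild type and heterozygotes at 50 dpf, and 41.0 to 59.0 and 21.4 to 36.3 CPM at 8 mpf. An MPEG1 gene (ENSDARG00000078569) was at 0 in 3 of the groups and marco in heterozygotes at 50 dpf. Stromal markers, at 30.7 to 33.6 and 29.9 to 33.8 CPM at 50 dpf, were at 21.97 to 29.6 CPM in wild type and 14.0 to 16.1 CPM in heterozygotes at 8 mpf, where 6 of 9 fell; LUM was at 0 in heterozygotes at 50 dpf. Erythrocyte markers overlapped between the genotypes at both ages, between 17.3 and 45.7 summed CPM, with 2 of 5 lower at 50 dpf and 1 of 5 at 8 mpf; gata1a was at 0 in both heterozygote groups and hbaa2 in heterozygotes at 50 dpf. Of 11 oocyte markers, 8 rose and 1 fell at 50 dpf and 3 rose and 1 fell at 8 mpf. Their summed level was 12011 to 14435 CPM in wild type and 20526 to 26495 CPM in heterozygotes at 50 dpf. At 8 mpf it was 7655 to 9695 CPM in wild type and 12327 to 13643 CPM in heterozygotes.

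**Figure D4:**
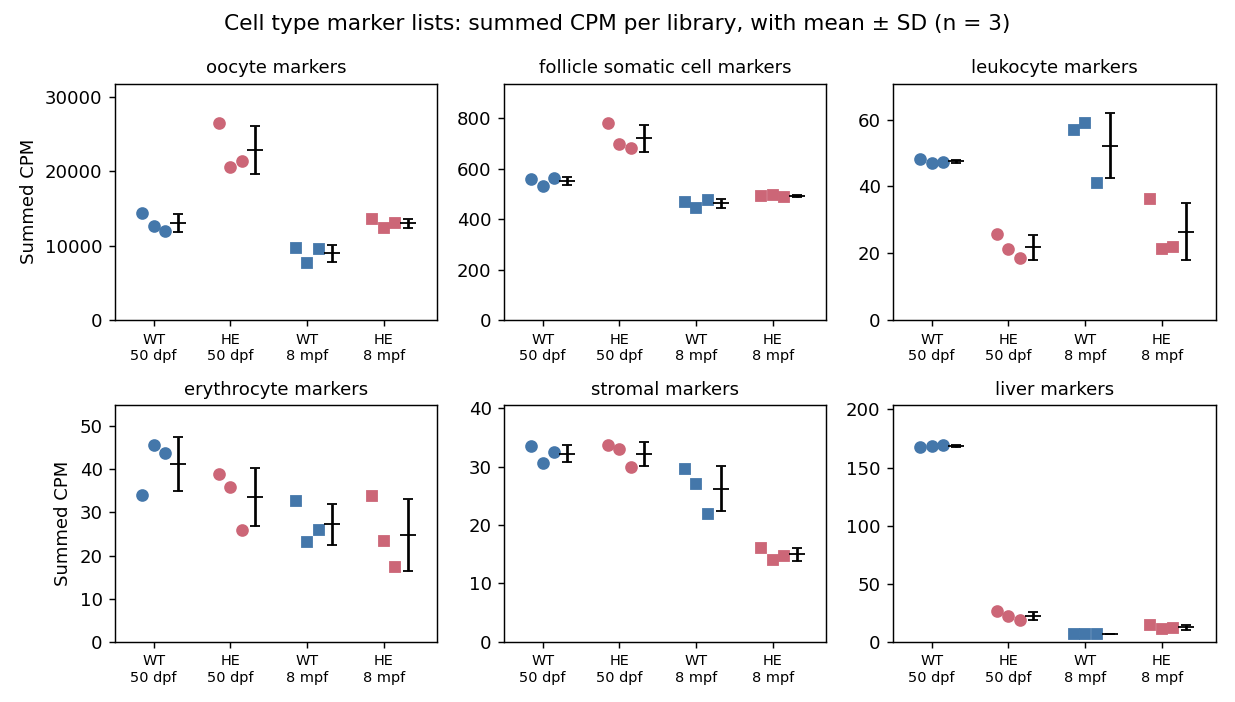
Summed CPM of the 6 marker lists in each library (circles at 50 dpf, squares at 8 mpf; blue for wild type, WT, and red for heterozygotes, HE), with the mean and SD of each group of 3 in black; each panel has its own axis from 0. Liver markers stand at 168 to 170 CPM for young wild type (50 dpf) and no higher than 26.1 CPM elsewhere, and leukocyte markers are lower in heterozygotes at both ages.

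The genes whose pattern was most like that of cdkn1a were ranked by the root mean square difference of log2 CPM over the 12 libraries, after centring each gene on its mean. Among 11892 genes the closest were pth1a, with a difference of 0.253, PAX5 (0.258), txlnbb (0.287), CCR6 (0.308) and pycr1a (0.323), where the median gene had 1.27. These 12 libraries form 4 groups, so the ranking rests largely on 4 levels. pth1a, a parathyroid hormone gene, ran at 8.35 ± 1.18, 1.39 ± 0.184, 2.87 ± 0.667 and 1.47 ± 0.246 CPM in wild type and heterozygotes at 50 dpf and then at 8 mpf (SD, n = 3). PAX5, a transcription factor of B cells, ran at 5.54 ± 0.428, 0.639 ± 0.188, 1.33 ± 0.0273 and 0.898 ± 0.282 CPM in the same order. Of the family, cdkn1ca came closest at 0.561 and rank 58, followed by CDKN1B ENSDARG00000054271 at 1.11 and CDKN3 at 1.28. CDKN1B ENSDARG00000029018, cdkn1cb and CDKN2C were below the mean of 1 CPM that the ranking asked for.

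**Figure D5:**
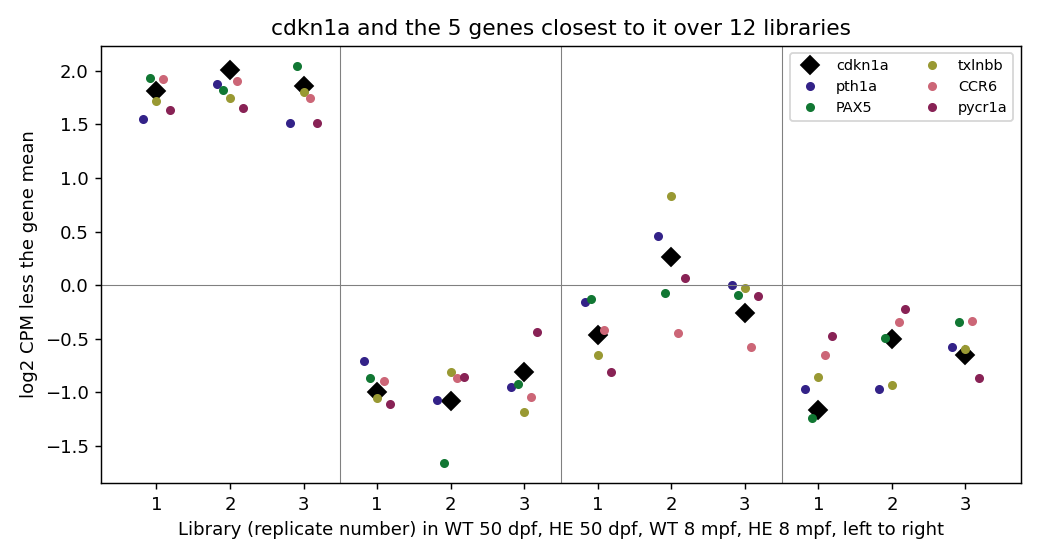
Log2 CPM less the gene's mean over all libraries for cdkn1a (black diamonds) and the 5 genes closest to it (coloured points), by library, in 4 blocks of 3 from wild type at 50 dpf to heterozygotes at 8 mpf. All 6 genes are highest in the first block, and txlnbb has an SD of 11.5 CPM around its mean of 22.2 CPM in wild type at 8 mpf.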

How the data were processed

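The authors deposited a table of estimated counts for each gene, in whole numbers and without scaling, and a table of their normalized signal on a linear scale, each with 1 column per sample. GRCz11, HISAT2, StringTie, DESeq2 and FastQC 0.11.5 are named in the submitters' processing notes; roles, settings and the annotation release are not given in the sources used here, nor how reads shared between near-identical genes were assigned. That the counts are estimates was inferred from gene-specific factors between the tables. The libraries are strand-keeping, per the labels' protocols.

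The counts were filtered with filterByExpr (18834 of 26339 genes with a count), scaled by TMM and tested with edgeR 4.0.16 (glmQLFit, glmQLFTest; R 4.3.3) in 1 fit of 12 samples with a mean per group. Two-sided p-values received the Benjamini-Hochberg adjustment over all tested genes of a contrast, with a threshold of 0.05. SEs and 95% intervals were calculated back from the F statistic. The exact permutation test of a member's CPM (SciPy 1.17.1) cannot go below p = 0.1 with 3 against 3, and gave that value wherever the groups did not overlap. A count of 0 allows up to 3 counts; this covers counting error only. Gene names matched 28988 of 32057 IDs; list genes were matched by symbol, in capitals, or without the paralog letter. Alternatives were RLE and upper quartile scaling, library size alone, DESeq2 1.42.0, no filter, only the groups compared, a replicate block, limma 3.58.1 (trend) on log2 of the authors' normalized signal plus 1 or 0.1, and leaving out each replicate. The procedure was tested on simulated data with a single fixed spread, in which a small set of genes above 1 CPM changed. That setting does not cover members with low counts, nor data in which a large share of genes differs. The members and lists were chosen with earlier results of these data known. Named were all members, up to 4 called genes per list and genotype contrast with the smallest p-values, and the 5 genes most like cdkn1a with a mean of at least 1 CPM and a symbol that is not a clone name. CDKN2D, ccnd3, E2F1 at 8 mpf, E2F4, foxo3a, MYC ENSDARG00000007241 at 8 mpf and single markers were added after their values were seen.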

Additional observations from a re-analysis of the deposited data

Results flagged for a closer look

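The log2 fold change of cdkn1a between genotypes was larger in size at 50 dpf, with a difference of 2.26 (8 mpf less 50 dpf; SE 0.38; edgeR adjusted p = 0.00193), which was tested directly. The difference held in all 20 alternatives, between 2.12 and 2.52. The effect was -2.94 at 50 dpf and -0.68 at 8 mpf, where it did not pass the threshold (edgeR adjusted p = 0.0679). At each age 3 of 3 heterozygote libraries lay below all wild-type libraries. The same held for 30.7% of all tested genes at 50 dpf and 23.5% at 8 mpf. The heterozygote level was 0.464 ± 0.0499 and 0.544 ± 0.132 CPM at the 2 ages while the wild-type level was 3.58 ± 0.259 and 0.858 ± 0.240 CPM (SD, n = 3).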

How the results depend on the processing

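Over all contrasts, 498 of 556 alternative values of the members kept their direction and side of the threshold; 13 lost a call, 18 gained one and 27 changed sign, all 27 for members that were not called. The number of members called at 8 mpf was 3, and 5 with upper quartile scaling or library size alone. For the difference between ages it was 1, and 2 with library size alone or DESeq2 (1 to 2 without single libraries); for age in heterozygotes it was 2, and 4 with library size alone. CDK and cyclin genes called went from 10 to 6 with upper quartile scaling at 50 dpf and from 2 to 6 with library size alone at 8 mpf, and turnover genes from 4 to 8 with library size alone at 50 dpf.

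Sign changes were as follows, for genotype at 50 dpf: cdkn1cb -0.32 and -1.27 with limma (pseudocounts 1 and 0.1), CDKN3 -0.060 with library size alone. For age, CDKN3 in wild type had 0.024 with library size alone, and in heterozygotes -0.027 with RLE, -0.17 with upper quartile scaling and -0.027 with DESeq2; CDKN2C in heterozygotes had -0.022, -0.14 and -0.048 with the same 3. Library size alone turned the medians of CDK and cyclin genes to -0.18 at 50 dpf and -0.041 at 8 mpf and of turnover genes to -0.21 and -0.14. The pocket protein and E2F median at 8 mpf became -0.16, and -0.073 with upper quartile scaling, which gave -0.035 for turnover genes at 8 mpf. Over all genes the median with library size alone was -0.40 at 50 dpf and -0.17 at 8 mpf, and with upper quartile scaling -0.078 at 8 mpf. Without single libraries, genotype values at 50 dpf ranged from -0.14 to 0.074 (CDKN1B ENSDARG00000054271), -0.55 to 0.95 (cdkn1cb) and -1.47 to 0.23 (CDKN2C). The difference between ages ranged from -1.35 to 0.39 (CDKN2C) and -0.078 to 0.13 (CDKN3), age in wild type from -0.11 to 0.093 (CDKN3) and age in heterozygotes from -0.54 to 1.18 (CDKN2C) and -0.045 to 0.10 (CDKN3). The cause of these changes was not tested. All genes that passed for the difference between ages numbered 2548, and 4118 without wild-type replicate 2 at 8 mpf. Library size alone split that difference into 1577 higher and 935 lower, against 1295 and 1253, and age in heterozygotes into 6664 and 3442, against 5364 and 4794; upper quartile scaling split age into 4435 and 6217 in wild type, against 5397 and 5000, and 4394 and 6031 in heterozygotes.

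Whether the replicate numbers pair the samples was not settled. Same-numbered libraries deviated together with correlations of -0.16 to 0.14, over 0.1 in 3 of 18 pairs. Differently numbered libraries were not compared, so these values cannot decide it. With a replicate block 3 members were called at 50 dpf, 2 at 8 mpf, 1 for the difference, 4 for age in wild type and 2 in heterozygotes. Depth limits cdkn1cb, CDKN2C and cdkn2a/b, which had at most 41, 20 and 3 counts in any library.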
